A study of Mus musculus with 28 samples.

Results

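The 10 genes described here encode granule proteins, Fas ligand, interferon-gamma, receptors and a transcription factor of natural killer (NK) cells and cytotoxic T cells. They are called effectors below. They were taken as the rows of the liver count table whose Ensembl identifiers map to Gzma, Gzmb, Gzmk, Prf1, Nkg7, Ifng, Fasl, Klrk1, Eomes and Ncr1. All 10 were found among the 49585 features of the table, and all 10 had enough reads to be tested. The table holds RNA-seq counts from the livers of 28 C57BL/6JOlaHsd mice, 7 in each of 4 groups, that is WT and SIRT6-tg animals of both sexes. SIRT6 is an NAD+-dependent deacylase, and SIRT6-tg mice carry a transgene that overexpresses it throughout the body. The mice were 5 to 7 months old per the labels, and all were on standard chow and were fasted for 4 h before the liver was taken. All SIRT6-tg animals descend from a single transgenic line, so effects of the transgene's insertion cannot be told apart from those of SIRT6, and WT animals were littermates housed in the same cages.

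Killing by these cells proceeds mainly through granules. Perforin opens pores in the membrane of a target cell, and granzymes, which are serine proteases stored in the same granules, enter through them and trigger death. A separate route runs through Fas ligand, which engages the receptor Fas on the target. The secreted cytokine interferon-gamma activates macrophages and hepatocytes. NK cells and some T cells recognise stressed cells through activating receptors such as NKG2D and NKp46, and the T-box factors EOMES and T-bet drive expression of the effector genes. The liver is rich in such lymphocytes, including NK cells, the related type 1 innate lymphoid cells (ILC1), and CD8 T cells.

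The labels were checked first with Sirt6 itself. Its level ranged from 1.69 to 3.24 CPM (reads per 1000000 counted, scaled by TMM) in male WT livers and from 198 to 358 CPM in male SIRT6-tg livers, while female WT livers held 1.80 to 6.22 CPM and female SIRT6-tg livers 16.4 to 50.2 CPM. The groups of each sex did not overlap. The total count per library ran from 18758863 in male WT replicate 5 to 35393069. The effector genes were counted with at most 507 reads in a library.

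Since T-box factors are among the regulators of these genes and the members are compared as a group, the bases upstream of their RefSeq start sites (build GRCm38.p6) are shown for the 3 members that carry the T-box core GTGTGA in the upstream sequence outside of any annotated exon. These are Gzmk and Gzmb, which fell in male SIRT6-tg livers, and Ncr1, which did not pass the test there. Each line runs 5′ to 3′ on the strand of the gene for 250 bases and ends 1 base before the start, and capitals mark the T-box core on either strand.

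Gzmk, chr13:113180966-113181215, minus strand: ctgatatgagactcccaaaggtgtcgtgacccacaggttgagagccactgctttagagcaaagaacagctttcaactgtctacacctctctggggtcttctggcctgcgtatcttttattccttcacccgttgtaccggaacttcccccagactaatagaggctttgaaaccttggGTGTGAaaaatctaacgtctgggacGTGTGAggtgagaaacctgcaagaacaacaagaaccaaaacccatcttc

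Gzmb, chr14:56262335-56262584, minus strand: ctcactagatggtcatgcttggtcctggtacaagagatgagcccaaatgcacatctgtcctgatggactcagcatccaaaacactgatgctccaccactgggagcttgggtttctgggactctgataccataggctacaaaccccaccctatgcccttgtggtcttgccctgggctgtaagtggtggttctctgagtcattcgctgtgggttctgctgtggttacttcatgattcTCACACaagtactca

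Ncr1, chr7:4337474-4337723, plus strand: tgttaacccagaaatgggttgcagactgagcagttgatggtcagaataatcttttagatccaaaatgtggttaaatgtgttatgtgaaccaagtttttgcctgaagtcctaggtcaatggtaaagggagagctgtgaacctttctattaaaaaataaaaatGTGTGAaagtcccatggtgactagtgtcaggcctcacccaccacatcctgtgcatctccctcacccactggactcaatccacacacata

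In windows of 300 bases (250 before and 50 after the start), the letters GTGTGA, searched on both strands, occurred in 4 of the 10 members and in 14.5% of 32851 RefSeq promoters. The fourth member was Nkg7, where the core began 12 bases before the RefSeq start and inside a Gencode exon, in the stretch ggtagggaagGTGTGAgaagaatcag. Gzmk held 2 copies, which began 74 and 49 bases before its RefSeq start. That start lies 44943 bases downstream of the Gencode start of Gzmk, so the window printed for it falls inside the Gencode gene, outside its exons. The RUNX core TGTGGT occurred in 6 of 10 members (Gzma, Gzmb, Prf1, Nkg7, Klrk1 and Ncr1) against 16.8% of promoters, and the STAT core TTCNNNGAA in 3 of 10 (Gzmb, Nkg7 and Ifng) against 8.3%. Gzmk, with the largest fold change in males, and Ncr1, which did not pass the test there, both carry the T-box core. These are matches of letters only.

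In male livers, SIRT6 overexpression was accompanied by lower levels of 9 of the 10 effectors. The fall ranged from 2.22-fold for Klrk1 to 34.7-fold for Gzmk, with a median log2 fold change over the 10 of -2.82, against 0.06 over all 21583 genes tested. Of all genes tested, 11.0% were called lower in this comparison (edgeR's quasi-likelihood test, Benjamini-Hochberg adjusted p under 0.05). In 7 of the 10 members every SIRT6-tg male lay below every WT male, which held for 4.37% of all genes. In bulk tissue, fewer cells of a type and less RNA per cell cannot be told apart. The labels number the libraries of a group without naming the animal, so p-values measure the spread between these libraries.

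**Figure D1:**
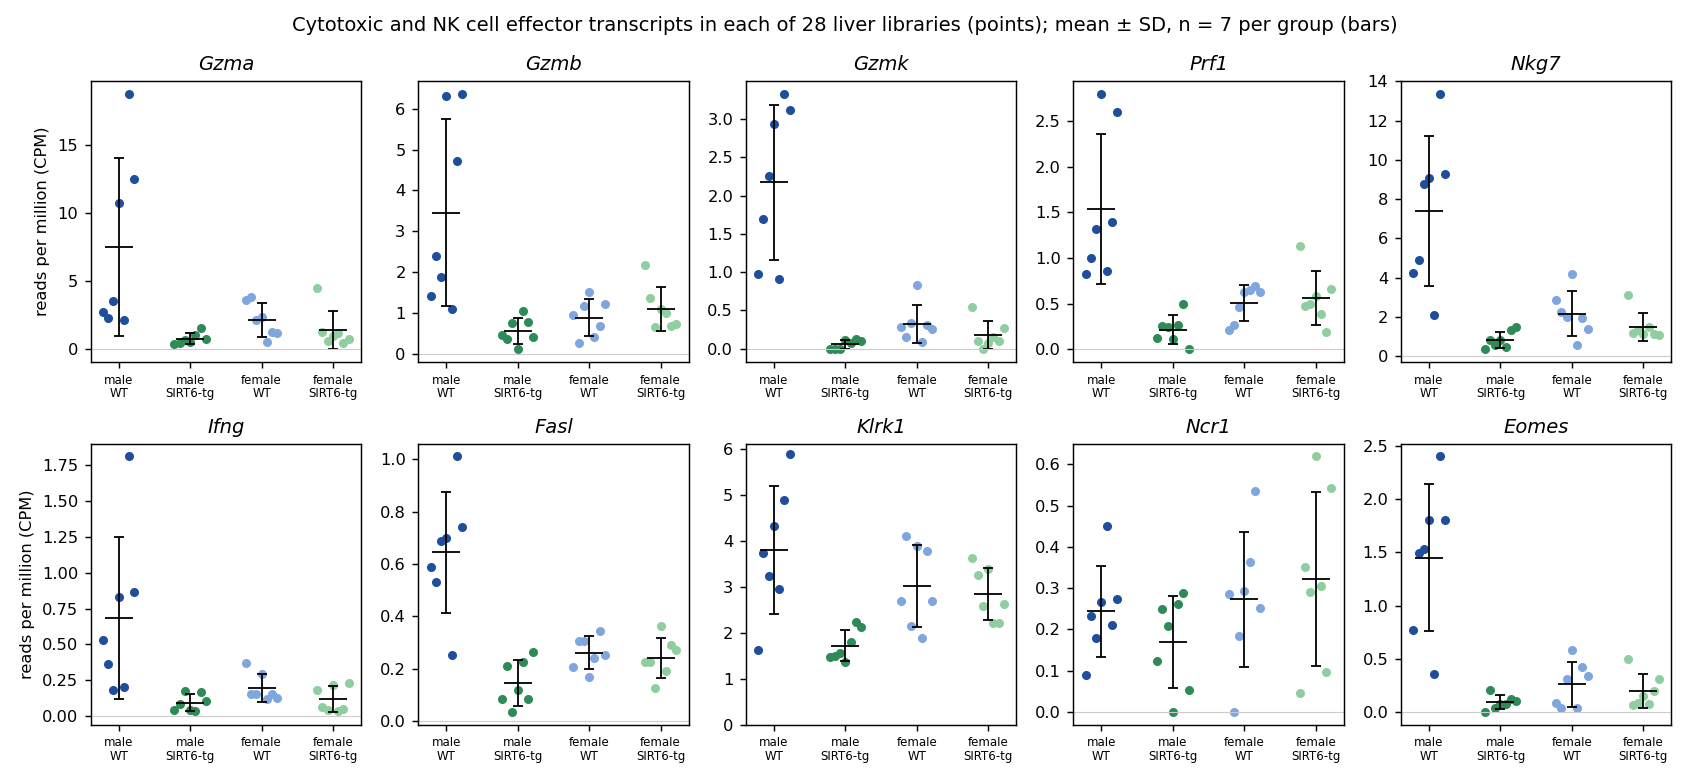
Level of each effector in CPM (vertical axes, linear, each panel with its own scale) in each library (points), with the mean and SD of 7 libraries per group (bars). In males, the WT and SIRT6-tg points separate fully for 7 genes, overlap for Fasl and Klrk1, and mix for Ncr1, whereas the female groups overlap in all 10 panels.

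The granzymes fell by different amounts. Gzma encodes granzyme A, a trypsin-like protease (chromosome 13, 113093825 to 113100981, minus strand). Its level in male WT livers ran from 2.16 through a median of 3.57 to 18.8 CPM, and in male SIRT6-tg livers from 0.370 through 0.657 to 1.57 CPM. The WT males were widely spread, with 3 livers above 10 CPM, and none of the SIRT6-tg males reached the lowest WT value. The log2 fold change was -3.31 ± 0.58 (SE, adjusted p = 1.16e-04, edgeR). Gzmb encodes granzyme B, which activates caspases (chromosome 14, 56258838 to 56262260, minus strand). It ran from 1.10 through 2.40 to 6.36 CPM in WT males and from 0.116 through 0.452 to 1.05 CPM in SIRT6-tg males, without overlap, and fell by 2.59 on the log2 scale (SE 0.43, adjusted p = 4.94e-05).

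Gzmk, which encodes granzyme K and lies beside Gzma (chromosome 13, 113171608 to 113225908, minus strand), fell most. WT male libraries held 18 to 126 reads of it, or 0.904 to 3.33 CPM with a median of 2.25. SIRT6-tg male libraries held 0 to 3 reads, and 3 of the 7 held none, which allows up to 3 reads in each (counting error only). The highest SIRT6-tg value was 0.124 CPM. The log2 fold change was -5.12 ± 0.57 (95% confidence interval -6.28 to -3.95, adjusted p = 1.38e-07), and its size rests on those few reads. The locus also contains Esm1 on the opposite strand, but the exons of the 2 genes share 0 bases.

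Among the granule proteins, Prf1 encodes perforin, the pore former itself (chromosome 10, 61297833 to 61304680, plus strand). It ran from 0.825 through 1.32 to 2.80 CPM in WT males and from 0 through 0.242 to 0.495 CPM in SIRT6-tg males, and it fell by 2.81 on the log2 scale (SE 0.41, adjusted p = 5.93e-06). Nkg7 encodes a granule membrane protein that is needed for degranulation (chromosome 7, 43437073 to 43438249, plus strand). It was among the most abundant effectors, at 2.11 through 8.79 to 13.4 CPM in WT males and 0.370 through 0.815 to 1.48 CPM in SIRT6-tg males. The fall was -3.15 ± 0.39 (SE, adjusted p = 8.40e-07). For both genes the lowest WT male lay above the highest SIRT6-tg male.

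The secreted cytokine and the surface ligand also fell. Ifng encodes interferon-gamma (chromosome 10, 118441046 to 118445892, plus strand). It was counted with 4 to 43 reads in WT males, or 0.180 through 0.530 to 1.81 CPM, and with 1 to 5 reads in SIRT6-tg males, or 0.0375 through 0.0833 to 0.173 CPM. The ranges came close but did not overlap, and the log2 fold change was -2.82 ± 0.50 (SE, adjusted p = 1.01e-04). Ifng shares 336 exon bases with Gm49751 on the same strand, which was not among the counted features. Fasl encodes Fas ligand (chromosome 1, 161780689 to 161788495, minus strand). It ran from 0.251 through 0.690 to 1.01 CPM in WT males and from 0.0346 through 0.116 to 0.265 CPM in SIRT6-tg males, a fall of -2.17 ± 0.32 (SE, adjusted p = 7.98e-06). Male WT replicate 5, the shallowest library, lay among the SIRT6-tg males, and the highest SIRT6-tg male exceeded it.

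The receptors had smaller fold changes than the granzymes. Klrk1 encodes NKG2D, an activating receptor of NK cells, CD8 T cells and other lymphocytes (chromosome 6, 129610323 to 129623864, minus strand). It ran from 1.62 through 3.73 to 5.89 CPM in WT males and from 1.36 through 1.56 to 2.23 CPM in SIRT6-tg males. Only 1 WT male reached down into the SIRT6-tg range, and the fold change was -1.15 ± 0.22 (SE, adjusted p = 2.20e-04). Ncr1 encodes NKp46, a receptor of NK cells and ILC1 (chromosome 7, 4337724 to 4345164, plus strand). It ran from 0.0883 through 0.233 to 0.452 CPM in WT males and from 0 through 0.207 to 0.289 CPM in SIRT6-tg males, and did not pass the test (log2 fold change -0.45, 95% confidence interval -1.54 to 0.64, adjusted p = 0.610). Ncr1 was counted with 0 to 11 reads in a male library. Its interval includes the fold change of Klrk1 and lies above those of the other 8 effectors.

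Eomes encodes the transcription factor EOMES (chromosome 9, 118478212 to 118486132, plus strand). It ran from 0.351 through 1.53 to 2.40 CPM in WT males and from 0 through 0.0776 to 0.208 CPM in SIRT6-tg males, that is from 7 to 73 reads against 0 to 5. Its fall, -3.99 ± 0.54 (SE, adjusted p = 2.13e-06), was the largest after that of Gzmk. Eomes shares 118 exon bases with Gm33460 on the opposite strand, which was also counted, and since no strand setting for counting is given in the sources used here, reads from the shared bases may be missing from either.

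**Figure D2:**
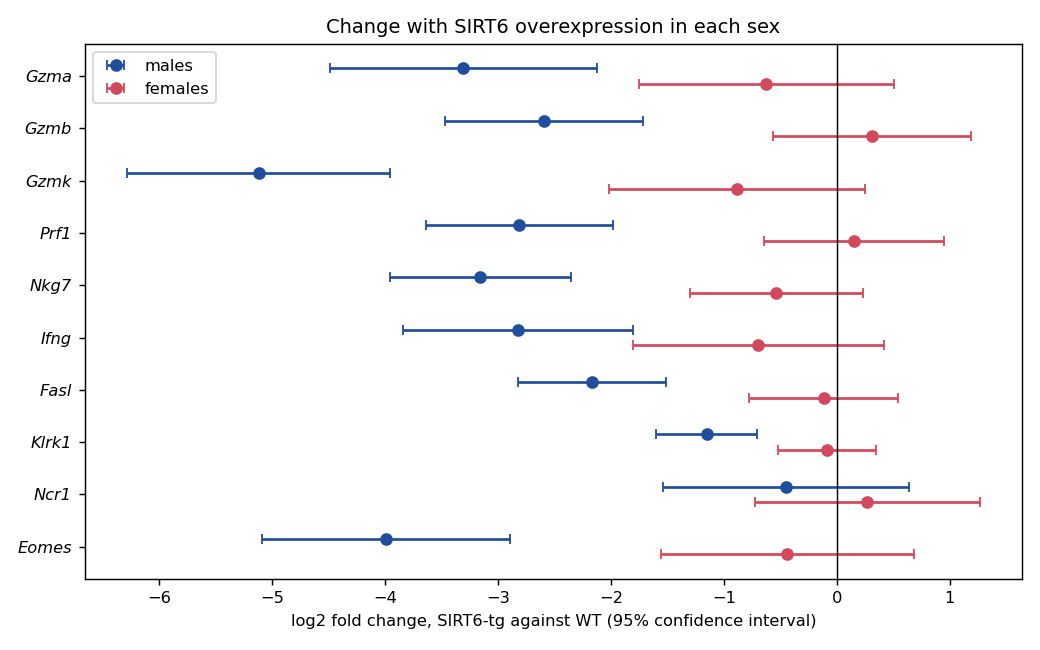
Log2 fold change of SIRT6-tg against WT (horizontal axis) for each effector (vertical axis), with 95% confidence intervals, in males and females. Male intervals lie below 0 for 9 genes and include 0 for Ncr1, and all 10 female intervals include 0.

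Abundances of different genes were compared per length (RPKM, that is CPM per kilobase of exon, with the exons of all annotated transcripts of a gene merged). In male WT livers the highest level was that of Nkg7 at 8.09 ± 4.19 RPKM (SD, n = 7), followed by Gzma at 7.50 ± 6.51 RPKM, Gzmb at 2.41 ± 1.59 RPKM and Gzmk at 1.56 ± 0.73 RPKM. Prf1, Klrk1, Ifng, Eomes and Fasl lay between 0.597 and 0.333 RPKM and Ncr1 at 0.158 RPKM. The ranges of neighbours in that order overlapped in all 9 cases. In male SIRT6-tg livers Nkg7, Gzma and Gzmb still led, at 0.922, 0.754 and 0.394 RPKM. Klrk1 was now the fourth at 0.239 RPKM and Ncr1 the fifth at 0.110 RPKM, while Gzmk had dropped to the ninth place at 0.0433 RPKM and Eomes to the last at 0.0215 RPKM. There, 8 of 9 neighbours overlapped, with Klrk1 above Ncr1 in all 7 livers. The order depends on the lengths, of which that of Klrk1 was the largest at 7183 bases. By CPM, Klrk1 was the highest member in male SIRT6-tg livers, at a mean of 1.72 against 0.843 for Nkg7.

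Whether the effectors fell equally was tested with the log2 ratio of each pair of members within each male liver, by an exact two-sided permutation test over the 3432 ways to divide 14 livers, a test chosen after the values were seen. The smallest p it can give is 0.000583. The ratio differed between genotypes for 22 of the 45 pairs after adjustment over the 45. Klrk1 differed from 8 of the other 9 members, each of which fell more than it did, and the exception was Ncr1 (adjusted p = 0.672 in the exact test). Gzmk fell more than 8 of the other 9, the exception being Prf1 (adjusted p = 0.0503 in the exact test). Ncr1 differed from 6 of 9, which were Gzma, Gzmb, Gzmk, Prf1, Nkg7 and Eomes. Of the 28 pairs without Klrk1 or Ncr1, 8 passed. Gzmk was at 0 in 3 SIRT6-tg males, and Prf1, Eomes and Ncr1 in 1 each. Ratios with these genes therefore depend on the 0.5 reads added to each count.

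In female livers none of the 10 effectors was called in either direction, and no member had an unadjusted p under 0.05. The background was 0.0278% of genes called and 5.62% with an unadjusted p under 0.05. DESeq2 called 0 members as well. Log2 fold changes ran from -0.89 for Gzmk to 0.32 for Gzmb, with a median of -0.28, and 7 of 10 were negative. The ranges of both female groups overlapped for each gene. Gzma ran from 0.524 through 2.17 to 3.84 CPM in WT females and from 0.434 through 0.983 to 4.48 CPM in SIRT6-tg females. Gzmk ran from 0.0807 through 0.286 to 0.835 CPM and from 0 through 0.0964 to 0.543 CPM. Klrk1, at 1.90 through 2.70 to 4.11 CPM against 2.21 through 2.63 to 3.62 CPM, had the narrowest interval, from -0.52 to 0.35 on the log2 scale. Intervals were wider for the other genes, and that of Gzmk reached -2.02.

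Prf1, Gzmb and Ncr1 had female log2 fold changes above 0, at 0.15, 0.32 and 0.27. Prf1 ran from 0.204 through 0.626 to 0.689 CPM in WT females and from 0.193 through 0.50 to 1.13 CPM in SIRT6-tg females, and its sign turned to -0.09 when a single library was left out. Eomes ran from 0.0384 through 0.306 to 0.584 CPM in WT females and from 0.0638 through 0.146 to 0.498 CPM in SIRT6-tg females. Female SIRT6-tg replicate 1 was the highest of its group for 7 of the 10 members.

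The male and female effects were compared with the interaction of sex and genotype. The transgene was itself expressed more in males, with Sirt6 at a mean of 281 CPM in SIRT6-tg males and 30.2 CPM in SIRT6-tg females (interaction 3.29 on the log2 scale, adjusted p = 6.96e-06), so sex and the level of Sirt6 cannot be told apart in this comparison. The fall was larger in males for 8 of the 10 members (edgeR), against 3.84% of all genes called in that direction. Differences of log2 fold change, males minus females, were -4.23 for Gzmk (SE 0.86, adjusted p = 0.00308), -3.55 for Eomes (SE 0.80, adjusted p = 0.00699), -2.96 for Prf1 (SE 0.57, adjusted p = 0.00208), -2.91 for Gzmb, -2.62 for Nkg7 and -2.05 for Fasl. For Gzma it was -2.68 (adjusted p = 0.0454) and for Klrk1 -1.06 (adjusted p = 0.0349). The call of Gzma was lost in 18 of the 28 fits that left out a single library (adjusted p up to 0.109), and it was kept without male WT replicate 1, 2, 3 or 5, male SIRT6-tg replicate 6, female WT replicate 1 or 2, or female SIRT6-tg replicate 3, 6 or 7. The call of Klrk1 was lost in 12 of the 28 (adjusted p up to 0.0847), those without male WT replicate 4, 6 or 7, male SIRT6-tg replicate 1, 2, 3 or 4, female WT replicate 3 or 5, or female SIRT6-tg replicate 1, 2 or 4. Ifng at -2.13 (adjusted p = 0.110) and Ncr1 at -0.72 (adjusted p = 0.647) did not pass.

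The sexes were also compared among WT mice, with the same WT libraries as in the genotype comparisons. In WT livers 8 of the 10 effectors were higher in males than in females, against 6.65% of all genes. Gzmk was 6.73-fold higher and Eomes 5.56-fold higher (adjusted p = 6.44e-05 and 3.42e-04). Gzmb was 3.92-fold, Gzma 3.53-fold, Ifng 3.46-fold, Nkg7 3.41-fold, Prf1 3.08-fold and Fasl 2.45-fold higher. All 7 WT males lay above all 7 WT females for Gzmk and Prf1, a separation that 1.33% of all genes showed. Gzma lost its call without male WT replicate 6 or without male WT replicate 7 (adjusted p up to 0.0654). Klrk1 (log2 difference 0.33, 95% confidence interval -0.09 to 0.76) and Ncr1 (-0.19, -1.21 to 0.83) did not pass.

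Among SIRT6-tg mice, whose males also held more Sirt6, all 10 log2 differences were negative, males against females, and 2 passed the test, against 10.2% of all genes called lower. Klrk1 was 1.66-fold lower in SIRT6-tg males (adjusted p = 0.0161), with 6 of the 7 males below every female. Prf1 was 2.54-fold lower (adjusted p = 0.0251), a call that was lost without male SIRT6-tg replicate 1, male SIRT6-tg replicate 4 or female SIRT6-tg replicate 1 (adjusted p up to 0.0652).

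The effectors were then set beside T cell reads, because lower levels of T cell markers accompanied them. All 8 T cell markers fell in males, and their summed level was 14.4 to 44.0 CPM in WT males and 4.60 to 6.77 CPM in SIRT6-tg males, with no marker at 0 in a whole group. Cd3e, which encodes a chain of the T cell receptor complex, fell by 2.56 on the log2 scale (adjusted p = 5.92e-08), and Cd8a, the coreceptor of cytotoxic T cells, by 3.67 (adjusted p = 5.85e-09). Their median log2 fold change was -2.39, against 0.06 over all genes, of which 11.0% were called lower. Of 6 NK cell markers 1 was called lower (Klre1, -1.44), a share near that of all genes, while all 6 log2 fold changes were negative with a median of -1.05. Klrb1c, which encodes NK1.1, did not pass (-0.52, adjusted p = 0.290). The summed NK cell markers ran from 1.71 to 4.47 CPM in WT males and from 0.830 to 2.37 CPM in SIRT6-tg males. Together they held 34 to 138 reads in a WT male library and 22 to 57 in a SIRT6-tg male library. Calls of single NK cell markers are limited by these counts. Of 4 ILC1 markers 2 fell, Tnfsf10 (-1.13) and Cxcr6 (-0.98), while Itga1 (0.01) and Zfp683 (-0.01) did not pass. The sum of the 4 ran from 25.9 to 45.1 CPM in WT males and from 19.7 to 29.0 CPM in SIRT6-tg males. Most of it came from Itga1 (mean 15.6 CPM in both male groups) and Tnfsf10 (13.8 and 6.32 CPM), so the sum mainly follows these genes. Zfp683 was at a mean of 0.160 CPM in WT males. Bulk tissue does not show whether the reads of Itga1, Tnfsf10 and Cxcr6 came from ILC1. All 5 general leukocyte markers fell, with Ptprc (CD45) at -1.71 (adjusted p = 3.17e-08), as did 5 of 5 Kupffer cell markers and 3 of 4 B cell markers. The share of these cell types in the fall of the effectors was not tested.

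**Figure D3:**
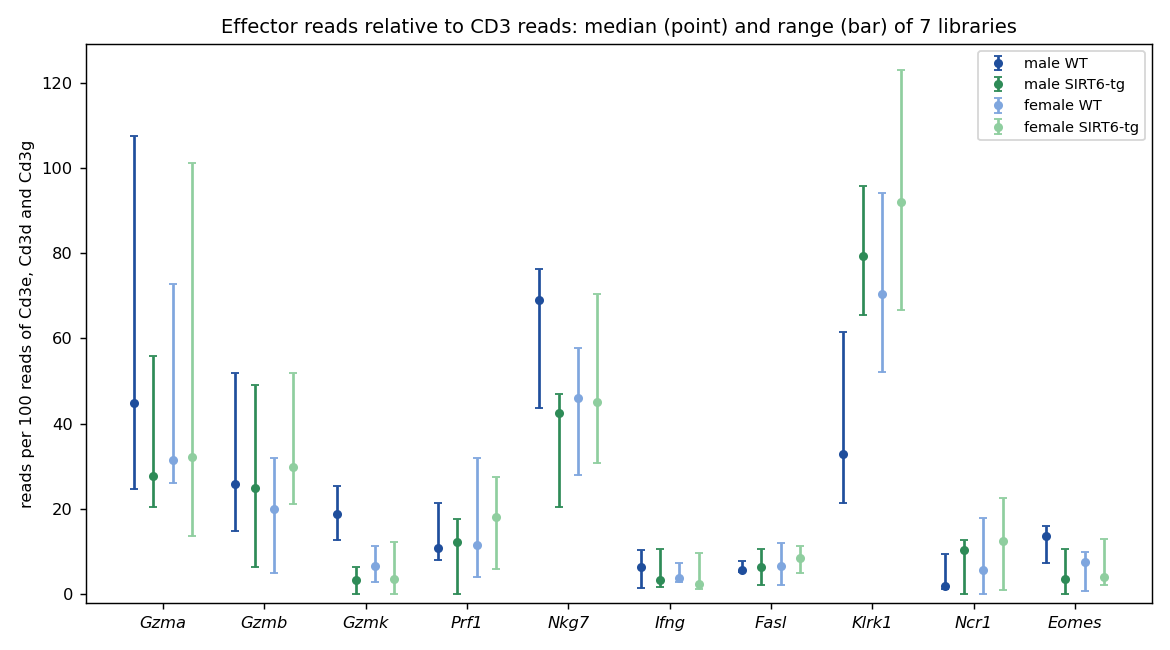
Reads of each effector per 100 reads of Cd3e, Cd3d and Cd3g together (vertical axis, linear), as the median (point) and range (bar) of 7 libraries in each of 4 groups. The male ranges do not overlap for Gzmk, which is lower in SIRT6-tg, and for Klrk1, which is higher.

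Per 100 reads of Cd3e, Cd3d and Cd3g, the male libraries held a median of 18.8 Gzmk reads in WT and 3.28 in SIRT6-tg, with ranges of 12.8 to 25.4 and 0 to 6.38. Klrk1 went the other way, from a median of 33 (21.4 to 61.5) to 79.4 (65.6 to 95.7). Ncr1 had a median of 2.03 in WT and 10.3 in SIRT6-tg, with overlapping ranges of 1.17 to 9.38 and 0 to 12.8. Fasl, at 5.73 against 6.38, Gzmb, at 25.8 against 25.0, and Prf1, at 10.9 against 12.3, had medians that differed little between genotypes against their ranges. Medians of Eomes were 13.7 and 3.51, of Nkg7 69.0 and 42.6, of Gzma 44.8 and 27.7 and of Ifng 6.35 and 3.28. These ratios are descriptions. They rest on 96 to 496 CD3 reads in a WT male library and on 44 to 68 in a SIRT6-tg male library, and CD3 transcripts themselves fell.

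The other genes of the pathway were counted by list, to be read against the 11.0% of all genes called lower and the 9.68% called higher in males. Among 11 genes of granule content and release, 7 fell and 0 rose in males (median -1.05), of which Stx11 (-1.67, adjusted p = 4.80e-07) and Unc13d (-1.27, adjusted p = 5.78e-06) serve in granule fusion and release, and Cst7 (-3.13, adjusted p = 9.16e-06) encodes the protease inhibitor cystatin F. Of 11 receptors and adaptors of NK cells 5 fell (list median -1.02). Klrd1, which encodes the CD94 partner of NKG2 receptors, fell from 1.46 to 3.16 CPM in WT males to 0.300 to 0.916 CPM in SIRT6-tg males (-1.85, adjusted p = 7.74e-06), whereas its partner Klrc1 did not pass (-0.77, adjusted p = 0.132). Tyrobp, which encodes the signalling adaptor DAP12, fell by 1.15 (adjusted p = 0.00425). Tyrobp was at a mean of 30.4 CPM in WT males, against 0.581 CPM for Klrb1c. Of the granule list, Ctsc was at 124 CPM and Srgn at 26.1 CPM there. Bulk tissue does not show in which cells the genes of these lists fell.

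NKG2D recognises a family of stress-induced ligands on other cells. Of 5 listed, H60c had 0 reads in all libraries and 4 were tested, and 1 passed, in the opposite direction. Raet1e rose from 3.42 to 5.34 CPM in WT males to 6.17 to 16.9 CPM in SIRT6-tg males (0.95, adjusted p = 0.00172), and with library size alone by 0.68 (adjusted p = 0.0352). Raet1d (0.17), H60b (0.43) and Ulbp1 (-1.05) did not pass. The Raet1 genes are close relatives of each other, and reads shared between copies may have been left out by unique mapping.

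**Figure D4:**
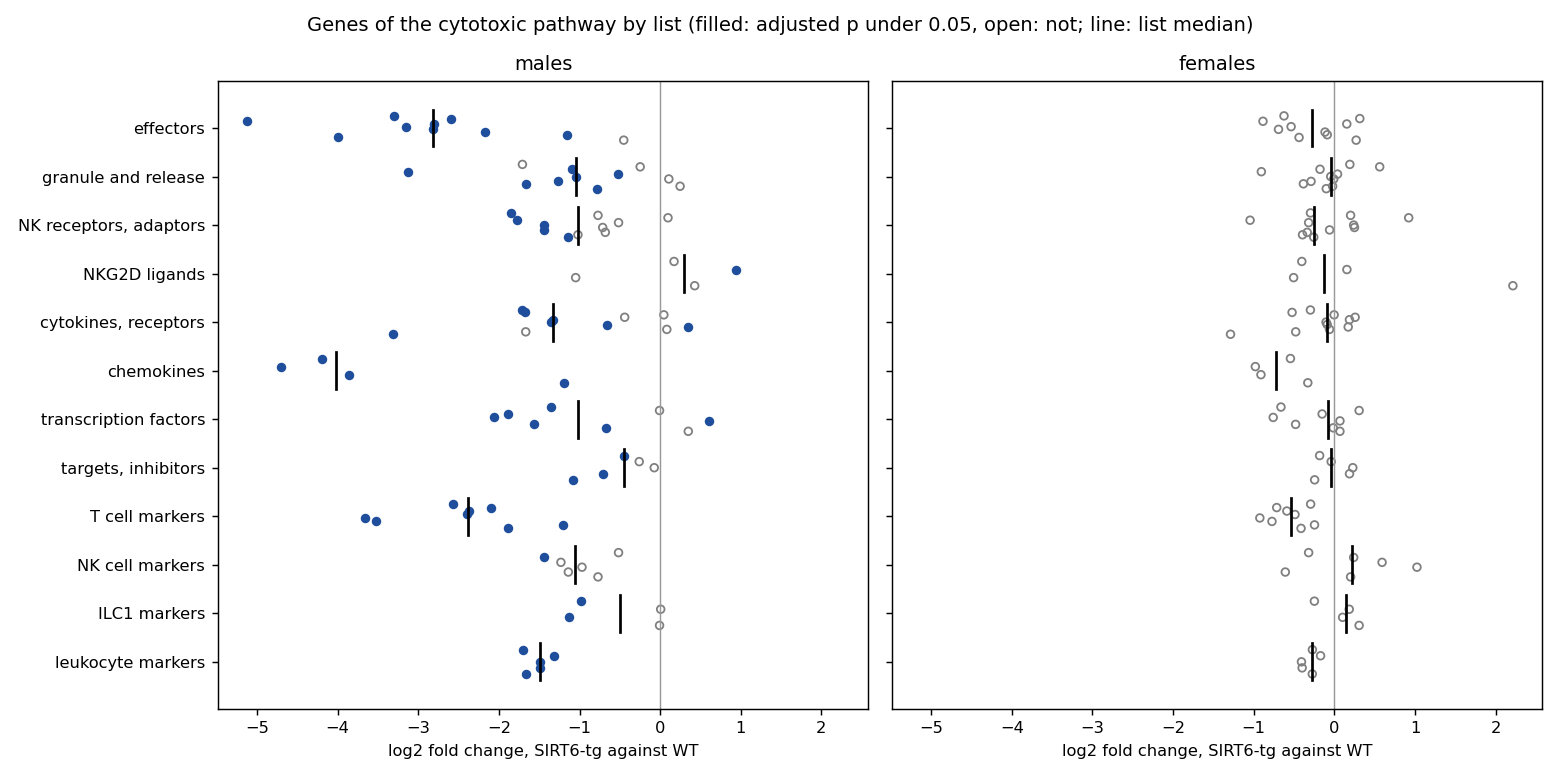
Log2 fold change of SIRT6-tg against WT (horizontal axis) for the genes of each list (vertical axis) in males and females, with calls at an adjusted p under 0.05 filled, other genes open and list medians as lines. Male list medians lie below 0 except for the NKG2D ligands at 0.30, and the female panel has no filled point.

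Among 11 cytokines and cytokine receptors that support or activate cytotoxic cells, 6 fell and 1, Il15ra, was called higher (list median -1.33). With 1 of 11, the share called higher is near that of all genes, and Il15ra was not called with upper-quartile scaling or library size alone (0.34 with TMM, 0.06 with library size alone). The receptor chains Il2rb (-1.72, adjusted p = 7.31e-07) and Il2rg (-1.68, adjusted p = 2.36e-06), which transmit IL-2 and IL-15 signals, and Il18rap (-1.35, adjusted p = 9.01e-05) fell. Il15, which encodes a survival factor of NK cells, fell by 0.66 (adjusted p = 0.00692), and Il18 did not pass (0.08, adjusted p = 0.763). All 4 chemokines of cytotoxic cells fell, with Ccl4 at -4.71, Ccl3 at -4.19 and Ccl5 at -3.85. Ccl5 ran from 8.68 to 49.5 CPM in WT males and from 1.07 to 3.10 CPM in SIRT6-tg males.

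Of 8 transcription factors of the lineage 5 fell (list median -1.01) and 1, Id2, was called higher, at 0.61 with TMM, but it was not called with upper-quartile scaling or library size alone (0.31). Prdm1 (Blimp-1) fell by 1.88, Runx3 by 2.06 and Zeb2 by 0.68, and Tbx21, which encodes T-bet, the closest relative of EOMES in these cells, fell by 1.35 (adjusted p = 0.00163). Id2 and Zeb2 were at means of 140 and 22.8 CPM in WT males, against 0.748 CPM for Tbx21. Of 5 genes for receptors of these effectors and for granzyme inhibitors, 3 fell. For these genes, as for the transcription factors, bulk tissue does not show in which cells the levels changed. The granzyme inhibitors Serpinb6b and Serpinb9 fell by 1.08 and 0.70, and Ifngr1, a chain of the interferon-gamma receptor, by 0.44. Ifngr2 (-0.26, adjusted p = 0.142) and Fas (-0.07, adjusted p = 0.793) did not pass. In females 0 genes of any of these lists were called.

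The variation between livers of the same group was shared among most effectors. After the group means were subtracted, Pearson correlations of log2 CPM over the 28 libraries ran from -0.03 to 0.77 for the 36 pairs without Ncr1, with a median of 0.46, and were highest for Gzma with Nkg7. For the 9 pairs with Ncr1 they ran from -0.29 to 0.40. Each gene's correlation with the mean of the other 9 was between 0.31 (Fasl) and 0.76 (Gzmb), except for Ncr1 at 0.02. The libraries share their depth and scaling, and low counts limit these values.

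**Figure D5:**
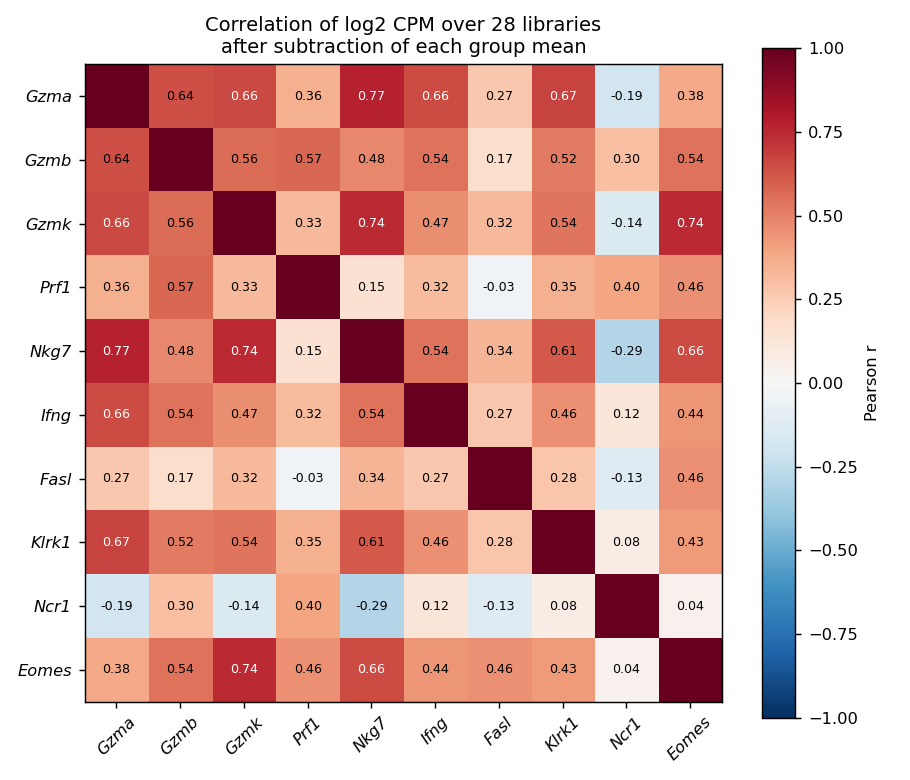
Pearson correlation of log2 CPM between each pair of effectors (both axes list the 10 genes) over 28 libraries after subtraction of the group means, from -1 (blue) to 1 (red). Gzma, Gzmk, Nkg7, Eomes and Klrk1 form most of the stronger pairs, and the row of Ncr1 is near 0 with values from -0.29 to 0.40.

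The genes outside the list whose group-centred levels were most like the mean of the effectors, over the same 28 libraries, were Ly9 (r = 0.90), Irf8 (0.89), Clec7a (0.87), Lcp2 (0.86), AB124611 (0.86), Bcl2a1a (0.86), Cxcl9 (0.85), Slamf8 (0.85), Pkm (0.84) and Ccl5 (0.84). Each of the 10 fell in male SIRT6-tg livers, by 1.36 (Pkm) to 3.85 (Ccl5) on the log2 scale, where 11.0% of all genes were called lower. None passed in females, where 0.0278% of all genes were called. Bcl2a1a belongs to a family of near-identical copies, and its counts are uncertain.

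In male WT livers the mean log2 CPM of the 10 effectors ran from -0.16 in replicate 5 to 1.54 in replicate 6. Replicate 5 was the lowest of its group for 6 members and replicate 6 the highest for 6. In male SIRT6-tg livers the same mean ran from -2.05 to -0.95, in female WT livers from -1.29 to -0.02 and in female SIRT6-tg livers from -1.32 to -0.10. Without any one library, 9 members were called lower in males.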

How the data were processed

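Liver RNA from 28 mice was sequenced single-end. The authors aligned reads with STAR 2.5.0a to mm10 and counted uniquely mapped reads per gene of Gencode vM12 with HTSeq, and the deposited values are raw counts with no normalization. No strand setting is given in the sources used here. Groups came from the sample labels. Identifiers were matched to Gencode vM21 (49326 of 49585 features had a symbol, 43749 with the same version), from which positions and exon lengths were taken, and promoters were taken from RefSeq.

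Counts were analysed in R 4.3.3 with edgeR 4.0.16. Genes with a mean of at least 0.5 DESeq2-normalized counts were kept (21583 genes), counts were scaled by TMM, and all 4 groups were fitted together by the robust quasi-likelihood method with Benjamini-Hochberg adjustment over all genes. TMM factors ran from 1.06 to 1.17 in male WT and from 0.821 to 0.993 in male SIRT6-tg. The median fold change of all genes in males was 0.06 with TMM and -0.22 with library size alone. DESeq2 1.42.0, other scalings, other filters, fits of each sex and fits without each library were alternatives. The fit was tested on simulated data. Changes were placed there only in genes with more reads than several of the effectors had, so that test does not cover those effectors. CPM are on the TMM scale, and intervals are 95%. Named beyond the members are the 3 genes of each pathway list with the lowest adjusted p in males, preset genes (all NKG2D ligands, Tbx21, Klrd1, Klrc1, Il15, Il18, Ifngr1, Ifngr2, Fas, Serpinb9), 4 markers and the 10 most similar genes, and a few others, such as Klre1, Il15ra and Id2, were chosen after their values were seen. Members and lists were chosen with earlier results of these data known. Libraries of a group differed by more than counting noise (chi-square per gene at least 12.2 over 84 pairs). Replicate numbers did not pair the mice.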

Additional observations from a re-analysis of the deposited data

Results flagged for a closer look

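Of the values of the members, 4 stood far above the other 6 of their group in a test for a single extreme value. They were Gzma at 4.48 CPM in female SIRT6-tg replicate 1 (next highest 1.28), Nkg7 at 3.12 CPM in the same library (next 1.49), Gzmk at 0.835 CPM in female WT replicate 4 (next 0.336) and Ifng at 1.81 CPM in male WT replicate 6 (next 0.867). The 4 came from 40 gene and group combinations. The test passes about 1 in 20 by chance for independent, normally distributed values. These are low counts of correlated genes, so that rate may not apply here.

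The effect of SIRT6 overexpression differed between males and females, by the interaction term, for 8 members, against 3.84% of all genes called in that direction. The calls of Gzma and Klrk1 were lost in 18 and 12 of the 28 fits that left out a single library. Sirt6 itself was at a mean of 281 CPM in SIRT6-tg males and 30.2 CPM in SIRT6-tg females, so sex and the level of Sirt6 cannot be told apart in these differences. The differences of log2 fold change, males minus females, were -2.68 (Gzma), -2.91 (Gzmb), -4.23 (Gzmk), -2.96 (Prf1), -2.62 (Nkg7), -2.05 (Fasl), -1.06 (Klrk1) and -3.55 (Eomes).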

How the results depend on the processing

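The 9 members called in males stayed called with RLE, upper-quartile or library-size scaling, without the filter, with DESeq2, with each sex fitted separately and with each library left out. With filterByExpr, Ifng and Ncr1 were not tested and 8 members were called. In females 0 were called under each alternative that was run. Among SIRT6-tg mice 1 to 2 members were called with single libraries left out. The interaction of Gzma had an adjusted p of 0.0896 without the filter and up to 0.109 without single libraries, where 6 to 8 members were called in all. That of Ifng passed with library size alone (adjusted p = 0.0450). Without single libraries the female log2 fold change of Prf1 ran from -0.095 to 0.28 and the WT sex difference of Ncr1 from -0.40 to 0.073, so both signs can turn. A total of 23 in place of 22 pairs passed with 1 read added to each count, an alternative chosen after seeing the data. Of the 7 listed genes outside the members called higher in males with TMM, 7 were called with RLE, 2 with upper-quartile scaling and 1 (Raet1e) with library size alone, also chosen after seeing the data.

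With the replicate number as a block, 9 members were called in males, 0 in females, 7 by interaction, 7 between WT sexes and 2 between SIRT6-tg sexes. Gzma lost its interaction (adjusted p = 0.0995) and its WT sex difference (adjusted p = 0.0553), and no other call of a member changed. The numbers were not taken as pairs, since deviations of same-numbered mice correlated at -0.35 to 0.33, over 0.1 in 12 of 42 comparisons, and 4 of 42 correlated best with their own number.

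Over all genes, the share of calls in males that were higher was 46.8% with TMM, 35.7% with RLE, 26.2% with upper-quartile scaling and 4.89% with library size alone. Of all genes, 6 were called in females by edgeR, 2 with each sex fitted separately and 42 by DESeq2. With library size alone the interaction called 1863 in place of 1089 and the WT sex comparison 4212 in place of 2669. Ncr1, Ifng, Fasl, Eomes and Gzmk are limited by counts of few reads.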

Other observations

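Lists of cell types without cytotoxic function were measured beside the effectors. Of the 6 neutrophil markers 5 were tested in males and 0 passed, as was the case for 3 of 3 mast cell and basophil markers and 3 of 3 markers of pancreatic acinar cells. Of the 5 neutrophil markers 3 log2 fold changes were negative and 2 positive, with a median of -0.68. The mast cell and basophil markers together held 1 to 7 reads in a WT male library and 0 to 4 in a SIRT6-tg male library. The pancreatic markers held 7 to 52 and 7 to 13 reads. A lack of calls does not show that these cells were unchanged. Of 6 hepatocyte markers 3 were called higher in SIRT6-tg males, against 9.68% of all genes. These were Serpinc1, which encodes antithrombin (0.39, adjusted p = 1.54e-04), Fgb (0.40) and Alb (0.35), while Apoa1, Apob and Trf did not pass. Of 3 erythroid markers Alas2, which encodes an enzyme of haem synthesis, was called higher (0.42, adjusted p = 0.0127). The haemoglobin genes Hba-a1 (0.25) and Hbb-bs (0.20) did not pass. Alas2 was at a mean of 71.3 CPM in WT males and 15.7 CPM in WT females. Hba-a1 was at 37.9 and 35.2 CPM, and Hbb-bs at 152 and 142 CPM. Whether erythroid cells changed was not tested. With library size alone, which moves the median of all genes in males from 0.06 to -0.22, none of Serpinc1, Fgb, Alb and Alas2 was called. Their log2 fold changes were then 0.11, 0.12, 0.07 and 0.14. These genes were chosen after their values were seen.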
